A study of Mus musculus with 6 samples.

Results

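The genes described here encode the actin filament system of the cell. They are the actin chains, the proteins that store, nucleate, cap, sever, bundle and anchor actin filaments, and the myosin II and tropomyosin chains that work on them. The 59 genes were taken by symbol from a list of actin genes, by a rule that reads no measured value. The list itself was chosen with earlier results of these data known. All 59 were found among the 55401 genes of the deposited table. RNA-seq read counts were compared between 3 mouse samples treated with NETs (neutrophil extracellular traps, webs of chromatin and granule protein that neutrophils release) and 3 control samples whose treatment is labelled Normal. The cell type of all 6 is labelled BMDM (bone marrow-derived macrophages) and the genotype WT, but the titles begin with BV2, which is a microglial cell line of the mouse. The dose of NETs and the length of treatment were not given in the sources used here. Nor do the labels tell whether replicates came from separate cultures or animals, so that p-values cover the spread of these 6 samples alone, which could be technical.

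Actin monomers add to filament ends, and cells control this by holding monomers in reserve, by starting new filaments and by cutting old ones. The Arp2/3 complex starts branched filaments when WASP and WAVE proteins activate it, while formins and Ena/VASP proteins lengthen unbranched ones. In macrophages the resulting network drives ruffling, phagocytosis, migration and the adhesive structures called podosomes, and myosin II pulls on it.

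Total gene counts ran from 39994613 to 44274445 per library. Levels are given as CPM, read counts per 1000000 counts of the library after TMM scaling, and each gene is listed for control replicates 1, 2 and 3 and then for NETs-treated replicates 1, 2 and 3. A gene was called higher or lower at an adjusted p under 0.05 in edgeR's quasi-likelihood test, two-sided, with Benjamini-Hochberg adjustment over all 15272 genes tested. Of 8 macrophage markers all 8 passed the filter on low counts. Their summed level was 5639 to 5812 CPM in control and 10254 to 10543 CPM in NETs-treated libraries, of which Cd14 took 691 and 5442 CPM on average, and 6 of the 8 were called lower. Among microglia markers Sall1 was at 0 and P2ry12 averaged 0.878 and 0.129 CPM. Neutrophil markers summed to 10.8 to 13.7 CPM in control and 10.02 to 15.6 CPM in NETs-treated libraries, with Ly6g, Ltf, Ngp, Retnlg, Mpo and S100a9 at 0. Of the 4 neutrophil markers tested 1 was called higher and 3 lower, among them S100a8 at 2.68 and 11.7 CPM and Csf3r at 6.21 and 0.127 CPM on average. Fibroblast and smooth muscle markers summed to 1.49 to 4.08 CPM and 2.44 to 4.26 CPM, with Col1a2, Col3a1, Lum and Dcn at 0.

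Most of the actin genes whose level differed were higher after NETs. Of the 59 genes, 56 passed the filter on low counts, and 30 of these were called higher, 9 lower and 17 neither way. Among all tested genes 52.7% were called, 25.5% higher and 27.2% lower, against 53.6% higher and 16.1% lower of the 56 actin genes. Most of the actin genes are abundant, so all genes averaging 10 CPM or more are the closer background. There 64.3% of all tested genes were called, 33.4% higher and 30.9% lower, against 30 higher and 8 lower of 54 actin genes. The median log2 fold change of the 54 was 0.25, beside 0.03 for all tested genes at that level. Changes of at least 2-fold were found in 7 of the 56, beside 19.3% of all tested genes. Marcksl1, Ezr, Actg1 and Dstn rose at least 2-fold, where 7.39% of all tested genes did, and Evl, Gsn and Tln1 fell at least 2-fold, where 11.9% did. In 40 of the 56 the 3 NETs-treated values lay apart from the 3 control values, 31 of them above and 9 below. Of all tested genes 62.4% had groups apart, 29.9% above and 32.5% below.

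**Figure D1:**
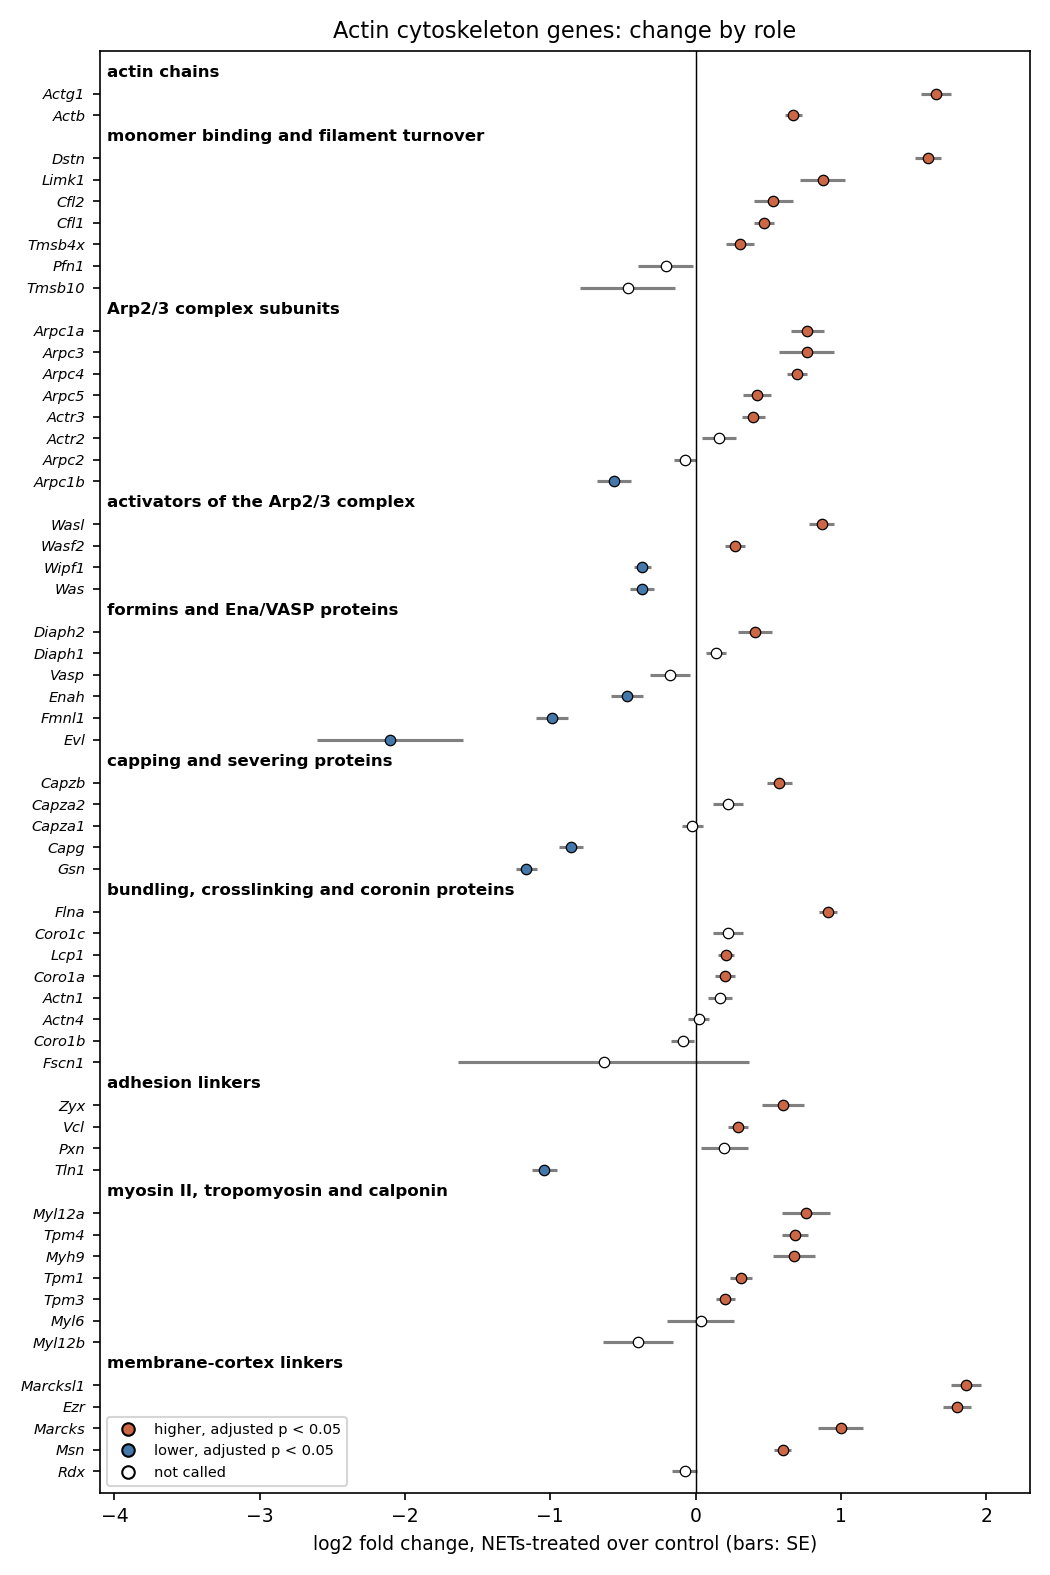
Log2 fold change of NETs-treated over control for the 56 tested actin cytoskeleton genes, grouped by role, with bars for the SE of the fit and filled points for genes with an adjusted p under 0.05. Both actins, 5 of 8 Arp2/3 subunits and 4 of 5 membrane-cortex linkers are higher, while the 9 lower genes lie mostly among filament nucleators and elongators, severing proteins and talin. Among all tested genes 25.5% were called higher and 27.2% lower.

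Reads of the 59 genes made up 2.06%, 2.00% and 2.02% of all gene counts in control and 2.75%, 2.66% and 2.67% after NETs. This share does not depend on the scaling between libraries, and every NETs-treated library lay above every control. The mean share was 2.03% ± 0.0267 (SD, n = 3) in control and 2.69% ± 0.0523 (SD, n = 3) after NETs, a difference of 0.668 percentage points with an exact permutation p of 0.1, two-sided, the smallest that 3 against 3 samples can give. Actb and Actg1 together made up 69.0% of the difference. Without these 2 genes the share was 1.61% in control and 1.82% after NETs, a difference of 0.207 percentage points, and the groups were still apart. The capping and severing group took 0.177% of counts in control and 0.130% after NETs, the most negative difference of any role group. In bulk RNA, fewer cells of a type and less RNA per cell cannot be told apart.

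**Figure D2:**
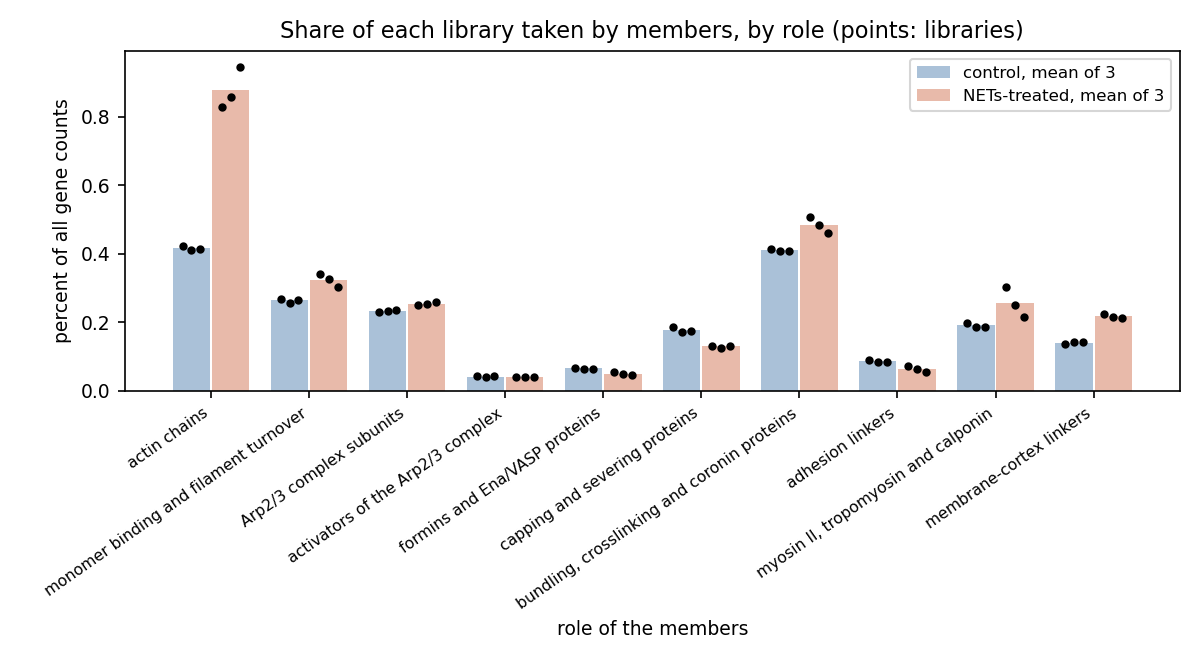
Percent of all gene counts in each library that fell on the actin genes of each role, with bars for the mean of 3 libraries per group and points for the libraries. The actin chains go from 0.416% to 0.876% of counts, a larger step than in any other role group.

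The genes of the 2 non-muscle actin chains, Actb (beta-actin, chromosome 5: 142903115-142906754, minus strand) and Actg1 (gamma-actin, chromosome 11: 120345690-120348542, minus strand), both rose, and Actg1 rose more. All positions are in the mouse build GRCm38 (mm10), from GENCODE M21. Actb stood at 2474, 2392 and 2383 CPM in control and at 4077, 3901 and 3575 CPM after NETs. Actg1 stood at 1628, 1620 and 1657 CPM in control and at 4433, 4941 and 6074 CPM after NETs. The NETs-treated values of both genes lay above all control values, and within the treated group the library highest for Actg1 was the lowest for Actb. The log2 fold change of Actb was 0.67 ± 0.06 (SE, adjusted p = 3.03e-05). That of Actg1 was 1.66 ± 0.10 (SE, adjusted p = 5.2e-06), a 3.15-fold rise. The ratio of Actg1 to Actb counts was 0.658, 0.677 and 0.695 in control libraries and 1.09, 1.27 and 1.70 after NETs. Per base of exon Actb averaged 902 and Actg1 615 RPKM (CPM per kilobase of annotated exon) in control, and 1437 and 1937 RPKM after NETs. Actb was thus ahead in every control library and Actg1 in every treated one. The annotated exons of Actb cover 2679 bases and those of Actg1 2658 bases. Reads of Actg1 are uncertain in part, since 6 processed copies elsewhere in the genome are at least 95% identical to it over at least 150 bases. Those copies together held 7.25% of the Actg1 level in control and 4.94% after NETs.

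Actin genes include known targets of SRF, a transcription factor that binds the CArG box, in which CC and GG flank a run of A and T, and that is switched on through its MRTF partners when free actin monomer runs low. The promoters of the actin genes were therefore searched for this box, and the 4 boxes in tested genes are shown, each found in the window from 250 bases before to 50 bases after the start site. Sequences are from RefSeq promoters of GRCm38.p6, 5′ to 3′ on the strand of the gene, and capitals mark the CArG box.
Actg1: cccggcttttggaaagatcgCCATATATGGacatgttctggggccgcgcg
Vcl: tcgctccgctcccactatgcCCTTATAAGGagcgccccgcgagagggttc
Arpc4: CCTAATTTGGtgcccaacctgaggtcgggc
Myl6: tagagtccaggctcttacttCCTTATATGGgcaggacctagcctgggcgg
The Actg1 stretch lies at chr11:120348556-120348605 on the minus strand, with the box 90 bases before the start site. The Vcl stretch, at chr14:20929151-20929200 on the plus strand, has its box 227 bases before the start. For Arpc4, at chr6:113377863-113377892 on the plus strand, the box opens the window 250 bases before the start, and for Myl6, at chr10:128493030-128493079 on the minus strand, it begins 50 bases before the start. A window was on hand for 54 of the actin genes but not for Actb, Coro1b, Diaph1, Marcks and Pxn, which were not searched. A box was held by 6 of the 54, the other 2 being Cnn2 and Vil1, whose counts were too low to test. As windows this was 8.96% of 67, beside 1.63% of all 32851 promoter windows in the table. By response, 3 of 28 genes with a window that were called higher held a box and 0 of 9 that were called lower. The AP-1 motif TGANTCA, searched on both strands, was in 7.46% of the actin gene windows and in 7.81% of all windows. A match is a match of letters, and binding was not measured.

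Among all tested genes 25.5% were called higher and 27.2% lower, and of those with at least 10 CPM 33.4% and 30.9%. These shares are the background for each role group below. Among the genes that hold and turn over actin monomers, 5 of 7 rose and 0 fell. Destrin (Dstn, chromosome 2: 143915320-143943324, plus strand), a member of the cofilin family that pulls filaments apart, had 221, 243 and 270 CPM in control and 682, 771 and 772 CPM after NETs. Its groups were far apart, with a log2 fold change of 1.60 ± 0.09 (SE, adjusted p = 2.92e-06). Cofilin 1 (Cfl1), its relative, had 738, 682 and 678 CPM in control and 1010, 1005 and 894 CPM after NETs. Cfl1 rose less, by a log2 fold change of 0.47 ± 0.07 (SE, adjusted p = 0.000536). Per base of exon the ratio of destrin to cofilin 1 was 0.446, 0.531 and 0.593 in control and 1.01, 1.14 and 1.28 after NETs. By that measure cofilin 1 was ahead in every control library and destrin in every treated one. In counts the ratio was at most 0.398 in control and 0.676 to 0.863 after NETs, below 1 in all 6 libraries. The lead of destrin after NETs thus rests on the exon lengths used, 1911 bases for destrin and 2844 for cofilin 1. Limk1, a kinase that switches cofilin off, had 10.8, 10.9 and 12.5 CPM in control and 22.4, 23.7 and 16.7 CPM after NETs, also without overlap. Limk1 rose by 0.87 ± 0.15 (log2, SE, adjusted p = 0.00148). Cfl2, the muscle-type cofilin, rose by a log2 fold change of 0.54, and lost its call with the GC correction and replicate block together (0.26, adjusted p = 0.0521). Tmsb4x, whose product thymosin beta-4 holds monomers in reserve, had a log2 fold change of 0.31 ± 0.10 (SE, adjusted p = 0.0282). The call of Tmsb4x was lost when any 1 of the 3 control replicates or NETs-treated replicate 2 was left out, with adjusted p up to 0.111 and log2 fold changes of 0.25 to 0.34.

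Profilin 1 (Pfn1), which feeds monomers to growing filament ends, and Tmsb10, another thymosin, were not called. Pfn1 had 489, 432 and 439 CPM in control and 521, 379 and 278 CPM after NETs. Tmsb10 had 541, 462 and 464 CPM in control and 533, 358 and 171 CPM after NETs. In both genes NETs-treated replicate 1 lay among or above the controls and the other replicates below them, so the groups overlapped. Without NETs-treated replicate 1 both were called lower, with log2 fold changes of -0.44 (adjusted p = 0.0137) for Pfn1 and -0.87 (adjusted p = 0.0187) for Tmsb10.

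Of the 8 Arp2/3 genes (the 2 actin-related subunits Actr2 and Actr3, and the Arpc subunits), 5 rose and 1 fell. Arpc4, a core subunit that holds the complex together, had 89.6, 87.8 and 83.1 CPM in control and 139, 135 and 148 CPM after NETs. All 3 treated libraries lay above the controls, with a log2 fold change of 0.70 ± 0.07 (SE, adjusted p = 6.82e-05). Arpc3 had 183, 164 and 157 CPM in control and 365, 293 and 199 CPM after NETs. Its treated libraries differed widely among themselves but stayed above every control (log2 fold change 0.77 ± 0.19, SE, adjusted p = 0.00878). Arpc5 and Actr3 rose by log2 fold changes of 0.42 and 0.40. Actr2 and Arpc2 were not called, at 0.16 and -0.07. Actr2 was called higher without NETs-treated replicate 1 (log2 fold change 0.30, adjusted p = 0.0174).

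The 2 genes for alternative forms of the ARPC1 subunit, which lie next to each other on chromosome 5, moved in opposite directions. Arpc1a (145083830-145108761, plus strand) had 48.9, 52.8 and 52.3 CPM in control and 76.1, 83.5 and 103 CPM after NETs. Arpc1b (145114215-145130705, plus strand), the form prominent in blood cells, had 322, 282 and 291 CPM in control and 238, 199 and 171 CPM after NETs. In neither gene did the groups overlap. Arpc1a rose by 0.77 ± 0.11 (log2, SE, adjusted p = 0.000585), while Arpc1b changed by -0.56 ± 0.12 (log2, SE, adjusted p = 0.00391). Per base of exon the ratio of Arpc1a to Arpc1b was 0.303, 0.373 and 0.358 in control and 0.637, 0.837 and 1.20 after NETs. By that measure Arpc1a passed Arpc1b only in NETs-treated replicate 3. In counts the ratio was 0.152 to 0.187 in control and 0.320 to 0.603 after NETs, below 1 in all 6 libraries. Arpc1b shares 931 exon bases with Pdap1 on the opposite strand, and the strand setting of the counting was not given. Pdap1 averaged 47.0 CPM in control and 37.6 CPM after NETs.

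The activators of the complex were split too, with 2 of 4 higher and 2 lower, beside 25.5% higher and 27.2% lower of all tested genes. Was, the WASP protein of blood cells, had 35.6, 35.2 and 35.3 CPM in control and 28.8, 25.2 and 28.2 CPM after NETs. Wasl, the widely expressed N-WASP, had 27.1, 27.1 and 25.4 CPM in control and 45.3, 47.6 and 52.4 CPM after NETs. Was was lower and Wasl higher in each treated library than in any control. The log2 fold change was -0.37 ± 0.08 (SE, adjusted p = 0.00631) for Was and 0.87 ± 0.09 (SE, adjusted p = 6.6e-05) for Wasl. Per base of exon the ratio of Wasl to Was was 0.278 to 0.298 in control and 0.608 to 0.730 after NETs, below 1 in all 6 libraries. In counts the ratio was 0.719 to 0.770 in control and 1.57 to 1.89 after NETs. Wipf1, a partner that stabilises WASP, fell with Was (log2 fold change -0.37), and Wasf2, a WAVE protein, rose by 0.27. The fall of Was missed the threshold once counts were corrected for GC content (adjusted p = 0.0504), and the rise of Wasf2 without control replicate 2 (adjusted p = 0.063).

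Of the 6 formin and Ena/VASP genes, 3 fell and 1 rose, beside 27.2% lower and 25.5% higher of all tested genes. Fmnl1, a formin of blood cells, had 278, 268 and 271 CPM in control and 162, 132 and 119 CPM after NETs. The groups were apart, and the log2 fold change was -0.99 ± 0.11 (SE, adjusted p = 0.000117). Vasp, which per base of exon was the most abundant Ena/VASP gene here, had 116, 97.3 and 101 CPM in control and 114, 85.1 and 79.4 CPM after NETs. Its groups overlapped through NETs-treated replicate 1 and it was not called; without that replicate its log2 fold change was -0.33 (adjusted p = 0.0149). Evl, of the same family, was low, with 2.72, 1.74 and 1.83 CPM in control and 0.847, 0.374 and 0.230 CPM after NETs. All treated values lay below the controls, with a log2 fold change of -2.10 ± 0.50 (SE, adjusted p = 0.00753). Enah fell (log2 fold change -0.47) and Diaph2 rose (0.41), while Diaph1 was not called at 0.14. Without NETs-treated replicate 3 Diaph1 was called higher (0.19, adjusted p = 0.0275). The rise of Diaph2 was lost without control replicate 1 (adjusted p = 0.0771) or control replicate 2 (adjusted p = 0.0529).

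Of the 5 tested capping and severing genes 2 fell and 1 rose, beside 27.2% lower and 25.5% higher of all tested genes. They include Gsn, which fell most among actin genes of at least 10 CPM. Gelsolin (Gsn, chromosome 2: 35256380-35307892, plus strand), which cuts filaments and caps their ends, had 580, 524 and 520 CPM in control and 255, 226 and 243 CPM after NETs. Capg, the gelsolin relative of macrophages that caps without cutting, had 575, 492 and 507 CPM in control and 308, 265 and 295 CPM after NETs. In both genes the treated libraries lay close together and far below the controls. The log2 fold change was -1.17 ± 0.07 (SE, adjusted p = 5.34e-06) for Gsn and -0.86 ± 0.08 (SE, adjusted p = 6.16e-05) for Capg. The heterodimeric capping protein did not follow them. Its beta chain gene Capzb rose by 0.58 ± 0.09 (log2, SE, adjusted p = 0.000667), and its alpha chain genes Capza1 and Capza2 were not called, at -0.02 and 0.23. A copy of Capza1, Gm3608, is 99.5% identical over 2859 bases and carried 46.8 CPM in control and 50.6 CPM after NETs, beside 227 and 223 CPM for Capza1 itself. Capza2 was called higher without NETs-treated replicate 1 (log2 fold change 0.35, adjusted p = 0.00564). Vil1, the gelsolin relative of gut epithelium, had 2 to 16 counts per library and was not tested.

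**Figure D3:**
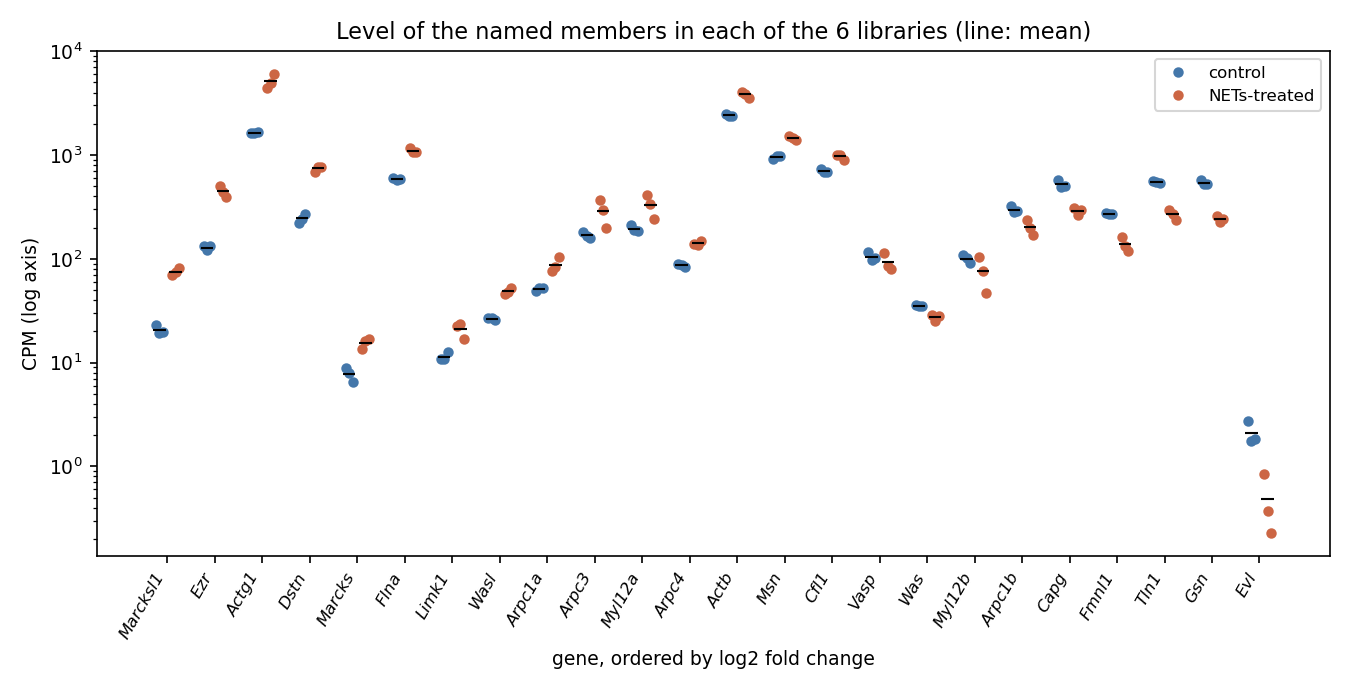
CPM on a log axis in each of the 6 libraries for 24 genes (Actb, Actg1, the called genes with the largest changes and both genes of 6 related pairs), ordered by log2 fold change, with a line at each group's mean. For all of these but Vasp and Myl12b the 3 NETs-treated points are separate from the 3 control points, with Marcksl1, Ezr, Actg1 and Dstn highest in fold and Evl lowest. Most of these genes were picked for their change or their pair's shift, so the separation comes in part from the choice. Of all tested genes 62.4% had groups apart.

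Of the 8 bundling, crosslinking and coronin genes, 3 rose, 0 fell and 5 were not called. Of all tested genes 25.5% were higher and 27.2% lower. Filamin A (Flna), which crosslinks filaments into a gel and ties them to integrins, had 600, 580 and 582 CPM in control and 1178, 1065 and 1068 CPM after NETs. The groups were far apart, with a log2 fold change of 0.91 ± 0.06 (SE, adjusted p = 7.04e-06). The bundling protein L-plastin (Lcp1) rose from 1940 ± 41.1 to 2243 ± 130 CPM (SD, n = 3 each), a log2 fold change of 0.21. Coro1a, the coronin of blood cells, had a log2 fold change of 0.20 (adjusted p = 0.0386). The call of Lcp1 was lost without control replicate 1 or 3 (adjusted p = 0.0639 and 0.055), and that of Coro1a without control replicate 2 or 3 or NETs-treated replicate 2 or 3 (adjusted p up to 0.158). The alpha-actinins Actn1 and Actn4 were not called, at log2 fold changes of 0.17 and 0.02, nor were Coro1b, Coro1c and Fscn1. Actn1 and Coro1c were called higher without NETs-treated replicate 3 (adjusted p = 0.00543 and 0.00741). Fascin (Fscn1), which bundles filopodia, averaged 0.329 CPM in control and 0.210 CPM after NETs.

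The 4 adhesion linkers did not move together. Talin 1 (Tln1, chromosome 4: 43531519-43562691, minus strand), which activates integrins and joins them to actin, had 566, 549 and 538 CPM in control and 296, 271 and 237 CPM after NETs. It fell in every treated library below every control, with a log2 fold change of -1.04 ± 0.09 (SE, adjusted p = 2.21e-05). Zyxin (Zyx), which repairs strained filaments, rose by 0.60 ± 0.15 (log2, SE, adjusted p = 0.00806). Vinculin (Vcl), which binds talin and actin, rose by 0.29 ± 0.07 (log2, SE, adjusted p = 0.00744). Paxillin (Pxn), an adhesion scaffold, was not called at 0.20. Vcl shares 2090 exon bases with Ap3m1 on the opposite strand. Ap3m1 averaged 144 CPM in control and 224 CPM after NETs, more than the 119 and 146 CPM of Vcl, and its part in the Vcl counts was not tested.

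Among the myosin II, tropomyosin and calponin genes, 5 of 7 tested rose and 0 fell. Myh9, the heavy chain of non-muscle myosin II, had 586, 545 and 552 CPM in control and 1112, 880 and 695 CPM after NETs. Its treated values were spread but all above the controls, with a log2 fold change of 0.68 ± 0.15 (SE, adjusted p = 0.00456). Myl12a and Myl12b, neighbouring genes on chromosome 17 for its regulatory light chain, differed from each other. Myl12a had 212, 189 and 184 CPM in control and 409, 341 and 242 CPM after NETs. Myl12b had 108, 101 and 90.9 CPM in control and 105, 76.5 and 46.8 CPM after NETs. The groups were apart for Myl12a, which rose by 0.76 ± 0.17 (log2, SE, adjusted p = 0.00498), and overlapped for Myl12b, which was not called (log2 fold change -0.40 ± 0.24, SE, adjusted p = 0.201). Without NETs-treated replicate 1 Myl12b was called lower, at -0.68 (adjusted p = 0.0121). The ratio of Myl12a to Myl12b counts was 1.96, 1.87 and 2.02 in control and 3.90, 4.45 and 5.17 after NETs. The 2 genes are 96.5% identical over 550 bases, so their reads may be partly exchanged. A further annotated gene on the same strand, Gm49909, shares 739 exon bases with Myl12b and 462 with Myl12a. Gm49909 was at 0 CPM in both groups, and how reads in shared exons were counted was not given. Tpm4, Tpm1 and Tpm3, whose tropomyosins coat filaments, had log2 fold changes of 0.68, 0.31 and 0.21. The call of Tpm3 was lost when any 1 control replicate or NETs-treated replicate 2 was left out (adjusted p up to 0.108), and its copy Tpm3-rs7 held a level of 9.90% of its own in control and 11.9% after NETs. The essential light chain gene Myl6 was not called, at 0.03. The calponins were barely present, with 0 to 18 counts per library for Cnn2 and 0 counts in all 6 libraries for Cnn3, which allows up to 0.0118 CPM for counting error alone.

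Of the 5 membrane-cortex linkers 4 rose, and they include Marcksl1 and Ezr, the 2 genes with the largest log2 fold changes of the 56. Ezrin (Ezr, chromosome 17: 6738041-6782784, minus strand), which links the membrane to cortical actin, had 132, 121 and 132 CPM in control and 501, 443 and 394 CPM after NETs. Moesin (Msn), the main member of its family in white blood cells, had 915, 975 and 987 CPM in control and 1510, 1450 and 1398 CPM after NETs. In neither gene did the groups overlap. Ezr rose by 1.80 ± 0.10 (log2, SE, adjusted p = 2.16e-06) and Msn by 0.60 ± 0.06 (log2, SE, adjusted p = 5.16e-05). Radixin (Rdx), the remaining family member, was not called at -0.07. The ratio of Ezr to Msn per base of exon was 0.238 to 0.277 in control and 0.543 to 0.638 after NETs. That of Rdx to Msn was 0.358 to 0.377 in control and 0.199 to 0.265 after NETs. Moesin remained the most abundant of the family per base of exon, at 152 RPKM in control and 230 RPKM after NETs.

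The MARCKS proteins bind acidic lipids and actin at the membrane and are released when phosphorylated by protein kinase C. Marcksl1 (chromosome 4: 129513581-129515985, plus strand) had 23.1, 19.1 and 19.9 CPM in control and 70.1, 74.5 and 81.1 CPM after NETs. Marcks had 8.81, 7.91 and 6.54 CPM in control and 13.6, 16.1 and 16.8 CPM after NETs. The treated libraries of both genes lay above every control. Marcksl1 had the largest log2 fold change of all 56 tested actin genes, 1.86 ± 0.10 (SE, adjusted p = 2.41e-06), and Marcks rose by 1.00 ± 0.16 (log2, SE, adjusted p = 0.000813).

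Ratios between related genes within a library are free of scaling between libraries and set members of a family against each other. Of 20 pairs, 19 had counts in every library, and in 14 the treated ratios lay apart from the control ratios. Among all tested genes taken singly, 62.4% had groups apart. The share among arbitrary pairs of genes is not given here, so the 14 cannot be set against it. With 3 against 3 samples the smallest exact permutation p is 0.1, two-sided, and the smallest after adjustment over the pairs was 0.136, so none could pass the threshold. The shift of the mean log2 ratio was 1.33 for Arpc1a over Arpc1b, 1.24 for Wasl over Was, 1.20 for Myl12a over Myl12b, 1.19 for Ezr over Msn, 1.13 for Dstn over Cfl1 and -2.11 for Evl over Vasp. Per base of exon Arpc1a, Wasl, Ezr and Dstn were the scarcer gene of their pair in control, and their ratios were higher in all 3 treated libraries than in any control. Myl12a was ahead of Myl12b in all 6 libraries, and Evl behind Vasp. Actg1 over Actb shifted by 0.97 and Marcksl1 over Marcks by 0.86. The ratio of Tmsb10 to Tmsb4x shifted by -0.91, but its groups overlapped, with 0.698 to 0.924 in control and 0.193 to 0.783 after NETs.

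**Figure D4:**
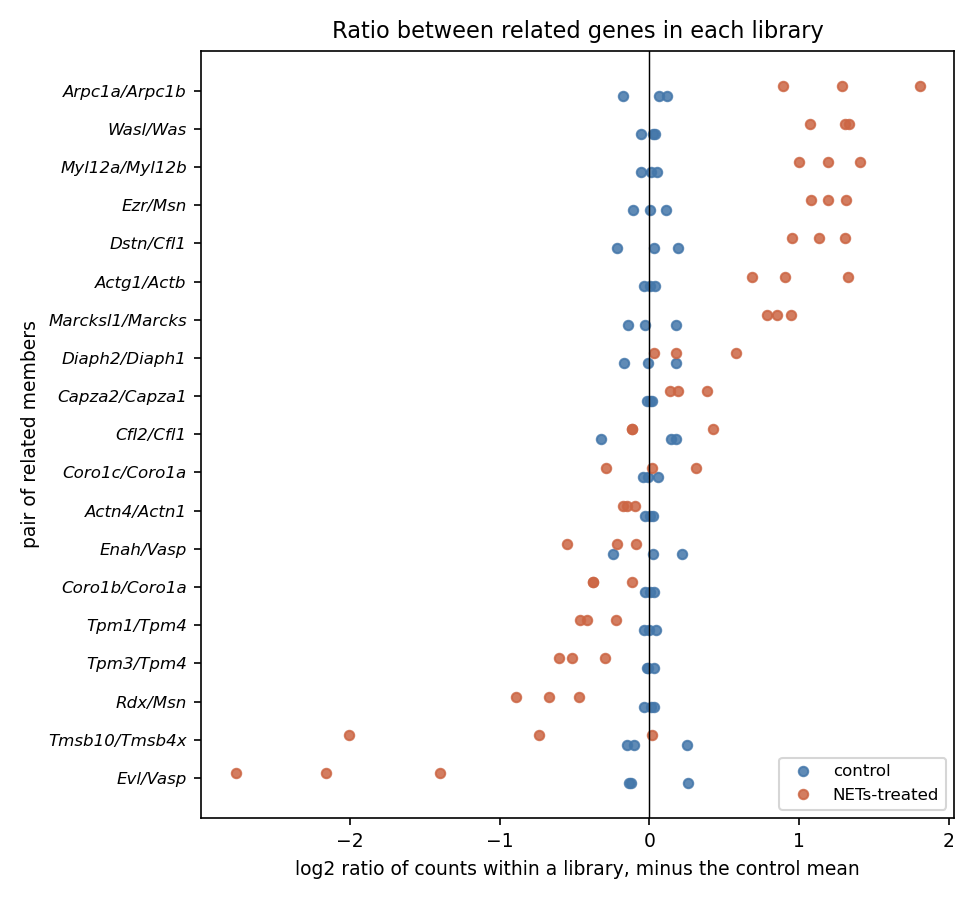
Log2 ratio of counts between related actin genes in each library, minus the control mean, with the 3 control and 3 NETs-treated libraries as points. The 5 pairs at the top of the shift range move by 1.13 to 1.33, the Evl to Vasp ratio by -2.11, and 5 of the 19 pairs overlap between groups.

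Levels per base of exon give an order of the set in each group. The length used is the union of all annotated exons, and which transcripts were expressed was not measured. The order between genes therefore rests in part on the annotation. In control the order of mean RPKM was Actb (902), Actg1 (615), Tmsb4x (460), Tmsb10 (383) and Arpc2 (284). After NETs it was Actg1 (1937 ± 316, SD, n = 3), Actb (1437 ± 95.1), Tmsb4x (568 ± 75.2), Dstn (388 ± 26.8) and Cfl1 (341 ± 23.1). Destrin thus went from rank 14 to rank 4 and ezrin from 32 to 14, while Capg went from 7 to 16 and Gsn from 10 to 22. Tmsb10 ranked 4 in NETs-treated replicate 1 and 12 in replicate 3, and the treated libraries of Dstn (357 to 404 RPKM) and Cfl1 (314 to 355 RPKM) lay next to each other without overlap. In counts, where exon length does not enter, Cfl1 was ahead of Dstn in all 6 libraries.

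Spread within a group was larger after NETs. For the 54 actin genes with at least 10 CPM the median SD of log2 CPM was 0.156 after NETs and 0.0616 in control, and 49 of the 54 were more variable after NETs, beside 74.5% of all genes at that level. In 9 genes the highest treated library exceeded the lowest by more than 1.5 times, and in 0 genes did control libraries do so. These were Tmsb10, Myl12b, Myl6, Pfn1, Arpc3, Myl12a, Pxn, Myh9 and Zyx, and all 9 were highest in NETs-treated replicate 1 and lowest in replicate 3. In all 9, control replicate 3 was also below control replicate 1, with log2 ratios from -0.06 for Zyx to -0.25 for Pxn. Deviations from the group mean correlated between same-number replicates over all tested genes at 0.124, 0.0271 and 0.0671 for replicates 1, 2 and 3. These values are low, although every sample correlated best with its own number. Whether a difference by replicate number is shared between the groups was not settled. The share of all genes beyond 1.5 times is not given here. Over all tested genes NETs-treated replicates 1 and 3 differed most too, with a chi-square per gene of 77.2, beside at most 19.2 between controls. The log2 ratio of NETs-treated replicate 3 to replicate 1 went down with the GC content of the gene's exons, with a Spearman correlation of -0.49 across the 54 genes and -0.56 across 9159 genes of at least 10 CPM. Genes are not independent replicates and the points share these libraries, so the values are a description. The log2 fold change itself had a Spearman correlation of -0.20 with GC content in the 54 genes. After a correction for GC content, 35 actin genes were higher and 9 lower in place of 30 and 9, with Actn1, Actn4, Coro1c, Diaph1 and Pxn joining the higher ones, Rdx (log2 fold change -0.25) joining the lower ones and Was leaving them.

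**Figure D5:**
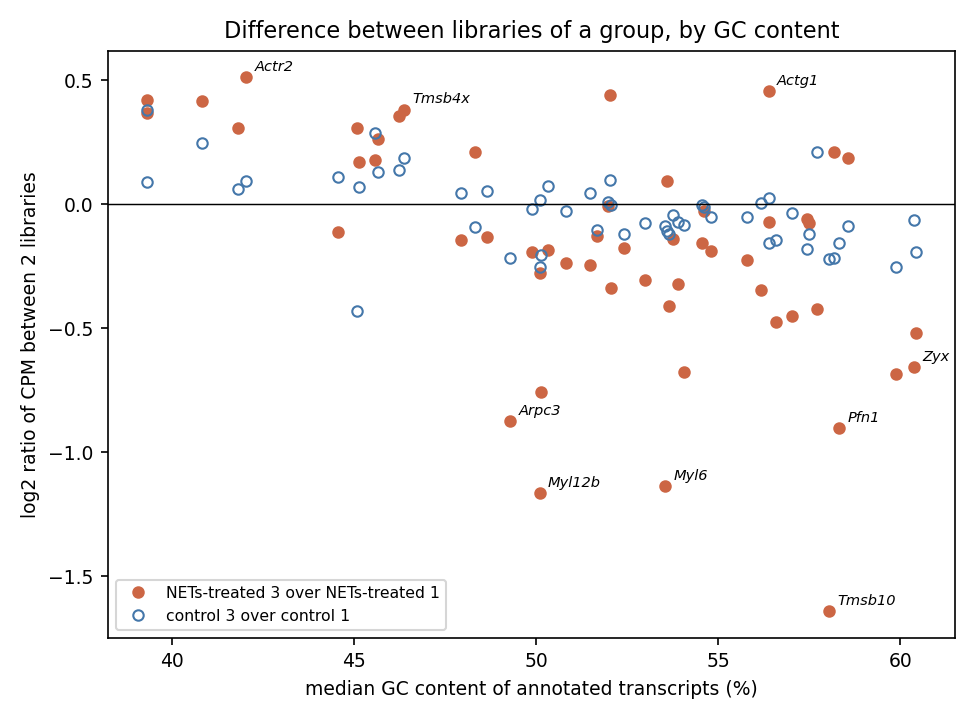
Log2 ratio of NETs-treated replicate 3 to replicate 1 against exon GC content for the 54 actin genes with at least 10 CPM. Genes of high GC content lie lower, with a Spearman correlation of -0.49, and Tmsb10 has the lowest ratio.

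Other genes of the actin pathway, none of them among the 59, were read from further lists, and the lists went different ways. Myosins other than myosin II were lower in 10 and higher in 1 of 13, beside 27.2% lower and 25.5% higher among all tested genes. Myo1f, a membrane-linked myosin of white blood cells, fell from 147 ± 3.68 to 35.6 ± 2.93 CPM (SD, n = 3), a log2 fold change of -2.05. Myo7a (-1.07) and Myo5a (-1.03) fell as well. Myo10, the filopodial myosin, had a log2 fold change of 0.36 (adjusted p = 0.0243), a call that was lost when any 1 control replicate or NETs-treated replicate 2 was left out (0.34 to 0.37). Podosome and adhesion plaque genes were lower in 17 and higher in 6 of 29, and after the correction for GC content 11 were higher. Tns1, which ties integrins to actin, fell from 66.2 ± 1.52 to 9.14 ± 0.853 CPM (SD, n = 3; -2.86). Tln2, the other talin, fell from 16.6 to 4.39 CPM (-1.92) and Lpxn, a paxillin relative, from 155 to 45.4 CPM (-1.77), alongside Tln1. Pdlim7 rose from 34.8 to 89.7 CPM (1.37).

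For each list that follows, the background is 25.5% higher and 27.2% lower among all tested genes. Of the WAVE complex and other Arp2/3 regulators 8 of 19 were higher and 5 lower. The 8 became 4 without control replicate 2, 5 without NETs-treated replicate 2, 4 with scaling by library size alone and 5 with no filter on low counts. Jmy, a nucleator that also activates Arp2/3, rose (log2 fold change 1.04), while Gmfg, which undoes Arp2/3 branches, and Baiap2 fell (-1.16 and -0.83). Other monomer, severing and capping regulators were higher in 6 and lower in 4 of 20. Eps8, which caps and bundles filaments, fell from 230 ± 6.62 to 69.5 ± 0.768 CPM (SD, n = 3; -1.73). Twf1, a monomer-binding twinfilin, rose (0.96), and Tmod1, which caps pointed ends, fell (-0.88). Of 9 other formins 4 were higher and 3 lower, with Fmnl2 at 0.98, Diaph3 at -1.01 and Fmn1 at -0.76. On the MRTF-SRF axis 7 of 13 genes were tested, 2 higher and 1 lower. Srf rose from 44.5 to 61.5 CPM (0.47) and Scai, an inhibitor of MRTF, rose by 0.54, Tagln2 fell (-0.27), and Mrtfa and Mrtfb were not called, at -0.07 and 0.06. The call of Scai was lost without control replicate 1 (0.43) or 3 (0.54), and that of Tagln2 without control replicate 1 (-0.20) or NETs-treated replicate 2 (-0.23), after GC correction (-0.07, adjusted p = 0.528) and after length correction (-0.15). Acta2 and Tagln, smooth muscle genes that SRF is known to drive, stayed below 2 CPM on average in both groups and were not called.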

How the data were processed

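The table that the authors deposited holds raw read counts for each gene in each sample. Its normalised counts are a deposited signal, and dividing the counts by them gave 1 constant factor in each sample. The authors' log2 fold changes and p-values, deposited beside the counts, served as an alternative. HISAT2, DESeq2 and the builds mm10 (mouse) and rn6 (rat) are named, without versions, in the submitters' processing notes. All 59 member gene IDs matched GENCODE M21, a mouse annotation. The libraries are strand-specific, per the labels' protocols. How reads were counted, whether strand was used and from which annotation was not given in the sources used here.

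Samples were grouped by the treatment label. Counts were tested on all 6 samples with edgeR 4.0.16 in R 4.3.3 (quasi-likelihood test, TMM, no covariates; filter with minimum count 10 and minimum total 15), with Benjamini-Hochberg adjustment over the 15272 genes kept, which held 99.9% of counts. The biological coefficient of variation was 18.5%. Replicates were not duplicates (chi-square per gene of 9.77 to 77.2 between libraries of a group). RPKM used the union of annotated exons. Limits from 0 counts use 3 counts over the 6 libraries and cover counting error only.

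Members were matched by symbol alone, but the members, gene lists, pairs and markers were chosen with earlier results of these data known. All values were given for Actb, Actg1, the 16 called members of at least 10 CPM with the largest change, and both genes of the 6 pairs that shifted most without overlap and with at least 1 CPM. From each related list described up to 3 called genes with the largest change and 1 called against the majority were named, at a mean of at least 10 CPM. Other members given in full (Pfn1, Tmsb10 and Myh9), and Mrtfa, Mrtfb, Acta2 and Tagln, were chosen after their values were seen. Alternatives were DESeq2 1.42.0 size factors and its Wald test, library-size and upper-quartile scaling, limma 3.58.1 with voom, no filter, a CPM filter, a replicate block, a GC correction (lowess, span 0.3), and leaving out each sample. A length correction, the block together with the GC correction, and the share without Actb and Actg1 were added after seeing the data. The fits were tested on simulated data. Some lists of pathway genes that were examined are not reported here.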

Additional observations from a re-analysis of the deposited data

How the results depend on the processing

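Under 18 alternatives 31 of the 39 called members kept their call in each, 23 higher and 8 lower, and 0 called members changed direction. The calls of Tmsb4x, Coro1a, Tpm3, Lcp1, Diaph2, Was, Wasf2 and Cfl2 were lost in at least 1. Members called higher ranged from 25 to 32 and lower from 9 to 13 when 1 sample was left out, the 13 without NETs-treated replicate 1, which made Pfn1, Tmsb10, Vasp and Myl12b lower. The median member log2 fold change then ranged from 0.22 to 0.29, and the difference in member share from 0.638 to 0.684 percentage points. That difference was 0.53 without Actb and Tmsb4x and 0.207 without Actb and Actg1, which together made up 69.0% of it. Whether the replicate numbers pair the samples was not settled. Same-number correlations were low, at 0.124, 0.0271 and 0.0671, although every sample correlated best with its own number. The replicate block gave 32 members higher and 10 lower, adding Capza2 (0.22), Coro1c (0.21) and Myl12b (-0.47). Directions turned only for uncalled members and 4 ratios, and the cause was not tested. With GC correction the log2 values were -0.0049 for Actr2, 0.0278 for Vasp, -0.0562 for Capza2, 0.1057 for Coro1b and, for ratios, -0.0066 for Capza2 to Capza1, -0.293 for Cfl2 to Cfl1, -0.0218 for Diaph2 to Diaph1 and -0.0741 for the log2 ratio Coro1c/Coro1a, and with replicate block and GC correction -0.0087 for Actr2, 0.0244 for Vasp, -0.0562 for Capza2 and 0.1024 for Coro1b. Length correction gave 0.0421 for Arpc2 and 0.051 for Capza1, and the CPM filter 0.0102 for Capza1. Scaling by library size gave -0.0533 for Actn4 and -0.0422 for Myl6, voom -0.0328 and the replicate block -0.0336 for Myl6. When 1 sample was left out, Arpc2 ranged from -0.0976 to 0.0093, Capza1 from -0.0421 to 0.053, Fscn1 from -1.0987 to 0.0461, Actn4 from -0.0113 to 0.088, Myl6 from -0.241 to 0.2918 and Rdx from -0.1433 to 0.0213, and the ratios of Cfl2 to Cfl1 and Coro1c to Coro1a turned as well. Depth limits Evl, Fscn1 and the 3 members too low to test.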
